A study of Mus musculus with 9 samples.

Results

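The carbonic anhydrase genes described here are Car1, Car2, Car3, Car13, Car5b, Car8 and Car12, 7 of the 35275 genes in the count table of mouse bone marrow megakaryocyte-erythrocyte progenitors (MEPs). They were found by their symbols and were chosen by their measured counts, among them that Car2 was the most counted gene in most libraries. The levels are therefore given as a description, without a test. A further 9 carbonic anhydrase genes (Car4, Car5a, Car6, Car7, Car9, Car10, Car11, Car14 and Car15) were left outside this choice and serve for comparison. The cells were Lin-ckit+CD34-FcγRII/IIIlo MEPs of C57Bl/6 wild-type mice, aged 6 to 12 weeks in the study's methods, with no treatment. HS3A8, a single-chain antibody fragment (scFv) against heparan sulfate (HS), was used to sort them into HS3A8-high MEPs, the upper portion of binding, and HS3A8-low MEPs, the lower portion. The control was mock-sorted with MPB49, an scFv without binding to HS, and stands for MEPs as a whole. Each of the 3 groups had 3 libraries made from 25000 cells each.

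Carbonic anhydrases are zinc enzymes that interconvert carbon dioxide and water with bicarbonate and a proton. Car1 and Car2 are the abundant cytosolic forms of red blood cells, where they serve carbon dioxide transport, and both are switched on as erythroid progenitors mature. Other forms differ in place: Car3 and Car13 are cytosolic, Car5b is mitochondrial, Car12 and Car9 sit in the plasma membrane with the catalytic domain outside, and Car8 is a related protein without enzyme activity.

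Car13, Car1, Car3 and Car2 lay in this order on chromosome 3 of GRCm38 (mm10), within 259 kb at chr3:14641727-14900770. Car1 (ENSMUSG00000027556) at chr3:14766216-14808368 is read from the minus strand, whereas Car13 (ENSMUSG00000027555) at chr3:14641727-14663002, Car3 (ENSMUSG00000027559) at chr3:14863512-14872523 and Car2 (ENSMUSG00000027562) at chr3:14886273-14900770 are read from the plus strand. Car5b (ENSMUSG00000031373) at chrX:163976822-164027997, Car8 (ENSMUSG00000041261) at chr4:8143362-8239041 and Car12 (ENSMUSG00000032373) at chr9:66713686-66766845 lie apart. No exon of the 7 genes is overlapped by an exon of another annotated gene. Car1 shares 13.4% of its 50-base windows with the pseudogene Gm5843, which held at most 0.147 CPM (counts scaled to a library of 1e6) in any library. Car5b shares 3.79% with other genes. How reads from shared windows were counted was not examined, so that counts of Car1 and Car5b are the less certain.

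The stretch of 30 coding bases around the first and second zinc-binding residues is shown because it is what makes these proteins enzymes, and because it sets Car8 apart. Capitals mark the codons aligned with histidines 94 and 96 of Car2, counted from the first residue that Car2 encodes. Each line is read 5′ to 3′ on the coding strand from the annotated transcript, within 1 coding exon.
Car1 at chr3:14776272-14776301, minus strand: ctcactcagttcCATtttCACtggggcaac
Car2 at chr3:14895057-14895086, plus strand: ttgatccagtttCACtttCACtggggctca
Car3 at chr3:14866838-14866867, plus strand: cttcgccaattcCATcttCACtggggctcc
Car13 at chr3:14650694-14650723, plus strand: ttgcggcagttcCATttgCACtgggggtca
Car5b at chrX:163991405-163991434, minus strand: ctgaagcagtttCATtttCATtggggagcc
Car8 at chr4:8221604-8221633, minus strand: ctgtatgaagttAGAtttCACtggggaaga
Car12 at chr9:66747635-66747664, plus strand: gcagagcagctgCACttgCACtgggggaac
All but Car8 encode histidine at both positions. Car8 carries AGA at the first, which is H94R relative to Car2, and histidine at the second. The third zinc-binding position, residue 119 of Car2, is histidine in all 7. Over the aligned residues the encoded proteins were identical to Car2 at 58.3% for Car1, 56.9% for Car3, 56.5% for Car13, 51.5% for Car5b, 43.3% for Car8 and 37.5% for Car12.

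The libraries held 11781637 to 15850037 counts each. With 0 counts, a gene may still have had up to 3, or 0.189 to 0.255 CPM. Kit, a marker of the gate, stood at 382 to 796 CPM over the libraries. Gata1 (an erythroid and megakaryocytic transcription factor), which is not part of the gate, stood at 368 to 515 CPM. Transcripts of Cd34, whose protein the gate excludes, stood at 0.827 to 11.0 CPM in HS3A8-high. They stood at 28.1 to 73.7 CPM in HS3A8-low and 15.3 to 42.3 CPM in the control. Control replicate 1 stood apart, with a mean Pearson's r of 0.912 with the other libraries (0.922 to 0.962 for the remaining 8) and a TMM factor of 0.865. Replicate 3 of both sorted fractions held more transcripts of granulocyte-monocyte genes, whose 12 markers summed to 1904 CPM in HS3A8-high replicate 3 and 4888 CPM in HS3A8-low replicate 3, against 10.005 to 260 CPM in the other 7 libraries. In bulk samples, fewer cells of a type and less RNA per cell cannot be told apart.

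The carbonic anhydrase family of these MEPs was almost wholly Car1 and Car2. Car2 was the most counted of all genes in 8 of 9 libraries, and Car1 was second in 7. In control replicate 1 Car1 and Car2 were in places 3 and 4, behind Ppia, which encodes cyclophilin A, and Gpx1, which encodes a glutathione peroxidase. In that library Ppia had 70344 counts, against 35854 to 41227 in the other 8. Car1 and Car2 together made up 99.7% to 99.8% of the counts of all 16 carbonic anhydrase genes in every library.

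Per length the order of both genes was the reverse of that by counts. Car2 had more counts than Car1 in 8 of 9 libraries, but its annotated exons span 2422 bases and those of Car1 1248. In CPM per kb of exon, a level per length, Car1 averaged 3969 and Car2 2190 over the 9 libraries, and Car1 was the higher in 9 of 9 with ranges that did not overlap. The ratio of the levels per length was 1.81, and 1.40 with the longest transcript in place of all exons.

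The other 5 genes lay far below. On the same scale of CPM per kb, Car13 averaged 3.46, Car3 1.498, Car5b 0.121, Car8 0.0836 and Car12 0.0561, so that Car2 stood 634 times above Car13. Car13 exceeded Car3, and Car3 exceeded Car5b, in 9 of 9 libraries. Car5b, Car8 and Car12 could not be put in order, since Car5b exceeded Car8 in 6 libraries, Car8 exceeded Car12 in 5, and their ranges overlapped. Car9, outside the 7, averaged 2.18 CPM per kb and Car7 0.751, both above Car5b. Car5a, Car6, Car10 and Car14 had 0 counts in all libraries.

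**Figure D1:**
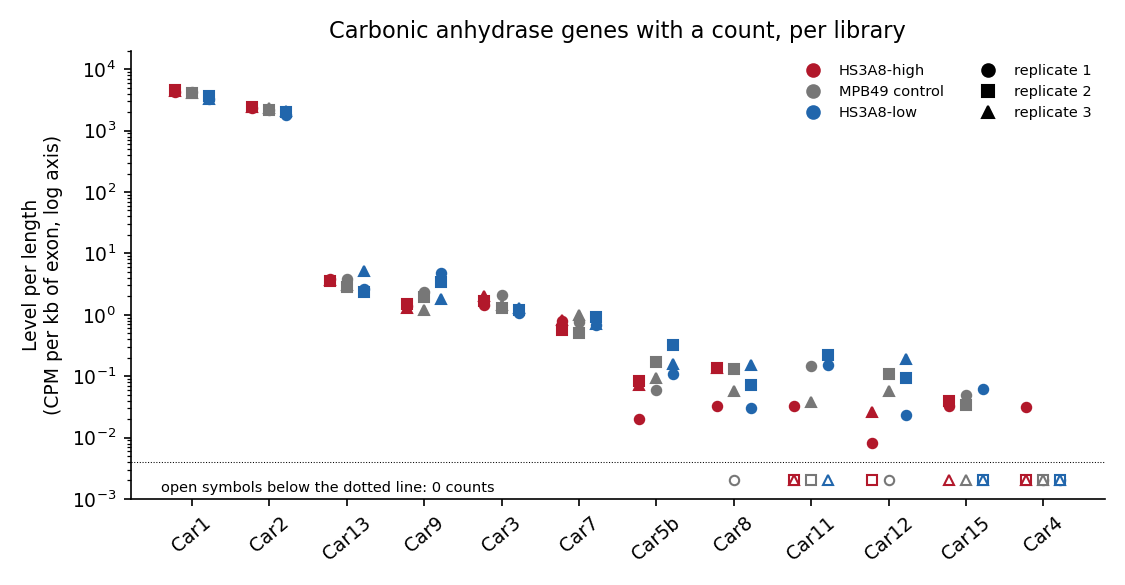
Level per length (CPM per kb of exon, log axis) of the 12 carbonic anhydrase genes with a count in any library, 1 symbol per library, coloured by group and shaped by replicate number. Car1 and Car2 stand at 1771 or more in every library, and the other genes below 5.12.

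The comparison of HS3A8-high with HS3A8-low MEPs asks which transcripts differ between MEPs that bind the scFv strongly and weakly. Car1 was higher in HS3A8-high MEPs and Car2 leaned the same way, both by modest factors. Among the 7 genes, Car1 was the 1 that passed the test, an adjusted p under 0.05 in edgeR's quasi-likelihood test with Benjamini-Hochberg adjustment over 11791 genes. In this comparison 3.82% of all genes tested passed. A figure of the study also lists Car1 and Car2 for this contrast, so the direction of these genes is not independent evidence.

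Car1 stood at 5298, 5714 and 5466 CPM in HS3A8-high replicates 1 to 3, and at 4030, 4491 and 4102 CPM in HS3A8-low. All HS3A8-high libraries lay above all HS3A8-low libraries. CPM are scaled by TMM over the 9 libraries here and below. The group means were 5493 ± 210 (SD, n = 3) and 4208 ± 248 CPM (SD, n = 3), and the log2 fold change was 0.36 ± 0.054 (SE), or 1.28-fold, with an edgeR adjusted p of 0.0257. Among the 11791 genes this standard error was in place 3 from the smallest. With the replicate number as a block, the log2 fold change was 0.36 and the adjusted p 0.00765. Leaving out any 1 of the 6 libraries kept the direction (0.34 to 0.43) but not the call (adjusted p of 0.0505 to 0.115).

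Car2 stood at 5565, 5966 and 5890 CPM in HS3A8-high replicates 1 to 3, and at 4288, 4927 and 4965 CPM in HS3A8-low. The groups did not overlap here either. The means were 5807 ± 213 and 4727 ± 380 CPM (SD, n = 3 each), with a log2 fold change of 0.27 ± 0.063 (SE), or 1.21-fold, and an edgeR adjusted p of 0.0667. With the replicate block the adjusted p was 0.0204, a call, and 11.6% of all genes passed in that fit.

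**Figure D2:**
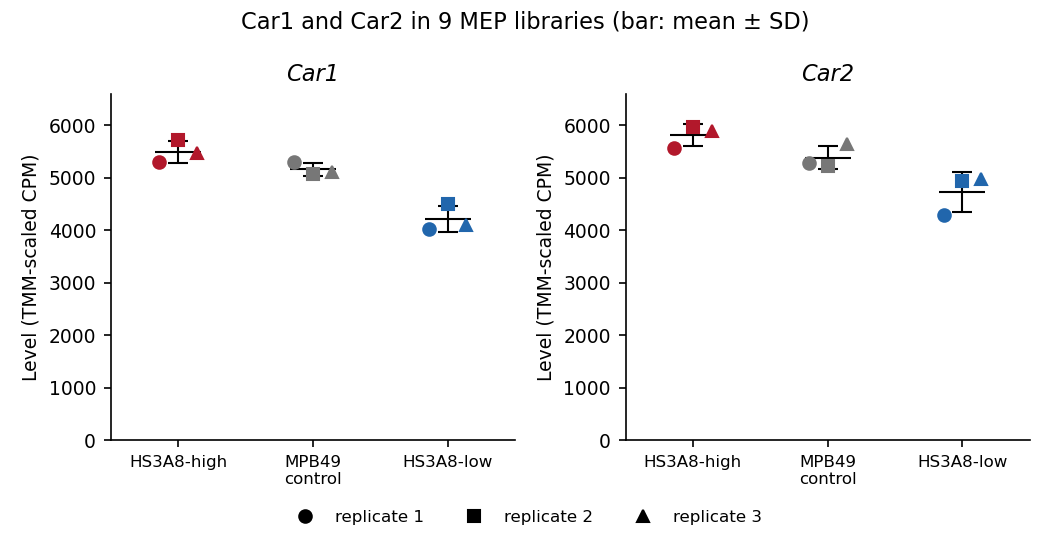
Level (TMM-scaled CPM, axis from 0) of Car1 and Car2 in each library by group, with the mean and SD as bars. HS3A8-high libraries lie above HS3A8-low libraries for both genes, and the control means, 5161 CPM for Car1 and 5380 CPM for Car2, lie between.

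The neighbours Car3 and Car13 were low and differed less clearly. Car3, a form best known from muscle and fat, had 67, 63 and 87 counts in HS3A8-high replicates 1 to 3 and 53, 48 and 44 in HS3A8-low, or 4.20, 4.74 and 5.75 CPM against 3.10, 3.37 and 3.70 CPM. The groups did not overlap, and the log2 fold change of 0.50 ± 0.27 (SE) had an edgeR adjusted p of 0.358. Car13 had 8.85, 8.20 and 8.53 CPM in HS3A8-high and 6.08, 5.48 and 11.8 CPM in HS3A8-low. HS3A8-low replicate 3 was its highest library and the other HS3A8-low libraries its lowest, so the groups overlapped (log2 fold change 0.11 ± 0.33, SE, edgeR adjusted p = 0.889). The difference was 0.53 without HS3A8-low replicate 3, and it turned to -0.013 without replicate 1 of HS3A8-low and to -0.061 without replicate 2.

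Car5b, the mitochondrial form, leaned the other way on few counts. It had 2, 7 and 7 counts in HS3A8-high replicates 1 to 3 and 12, 29 and 12 in HS3A8-low, or 0.126 to 0.527 CPM against 0.702 to 2.04 CPM. The groups did not overlap, and the log2 fold change of -1.77 ± 0.69 (SE) had an edgeR adjusted p of 0.216. Car12, the membrane form, had 1, 0 and 3 counts in HS3A8-high replicates, against 3, 10 and 17 in HS3A8-low, and did not pass the filter on low counts. Every HS3A8-high library of Car12 was at or under the 3 counts that a count of 0 allows. Without the filter, its log2 fold change was -2.98 ± 1.19 (SE), with an unadjusted p of 0.0338 and an edgeR adjusted p of 0.265, and it was not called in any of the 7 alternatives that tested it (adjusted p of 0.169 to 0.434). On so few counts this fold change depends on the prior count and is no bound. Car8 had 2, 7 and 8 counts in HS3A8-high replicates, against 2, 4 and 7 in HS3A8-low, and did not pass the filter either. At this depth no difference of Car8 was detectable.

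In all, 5 of the 7 genes passed the filter, and 4 of these had groups that did not overlap: Car1, Car2 and Car3 above in HS3A8-high and Car5b above in HS3A8-low. Car5b passed the filter through its HS3A8-low libraries and did not pass it in HS3A8-high against the control. Its place and direction in this count are therefore partly set by the filter. Over all genes tested in this comparison the groups did not overlap for 28.7%.

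**Figure D3:**
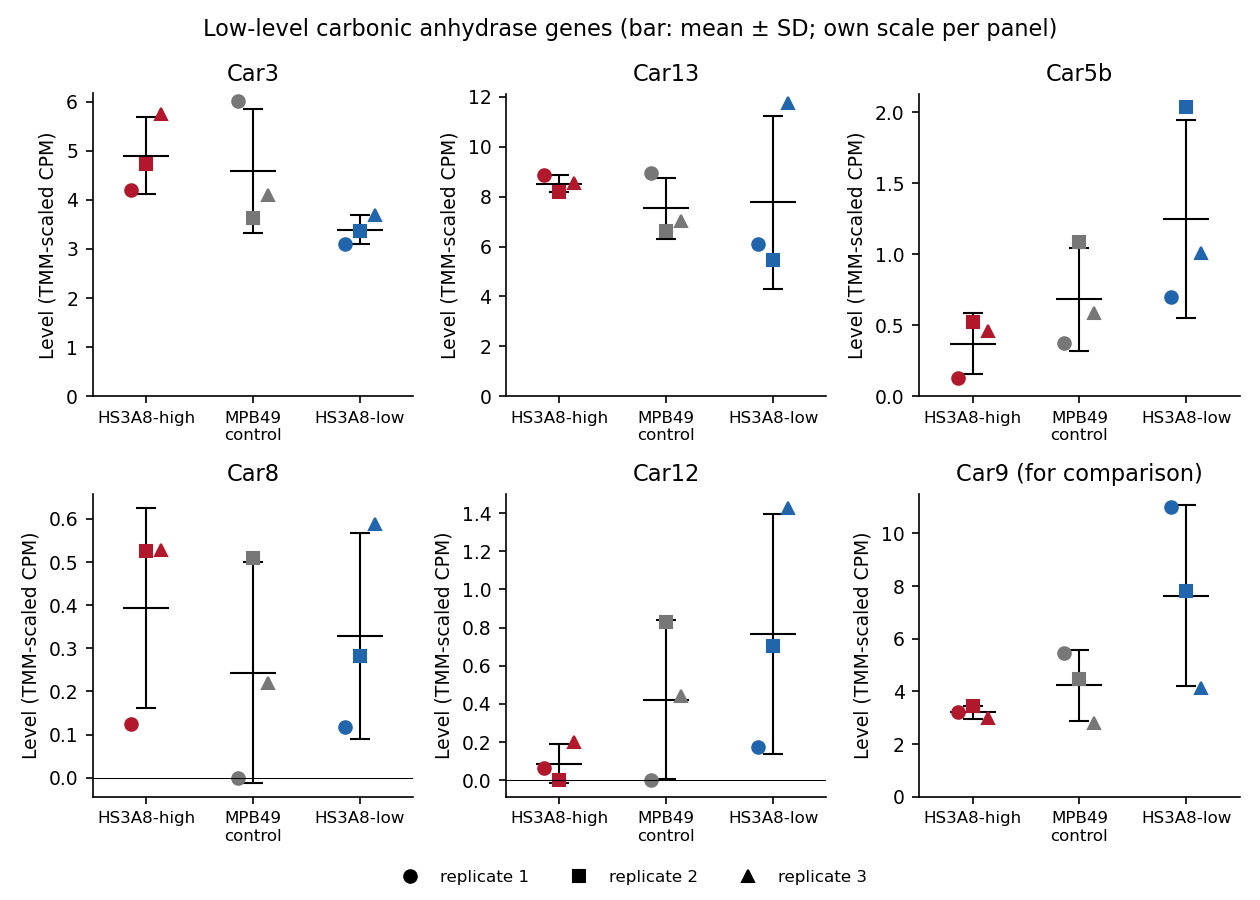
Level (TMM-scaled CPM, each panel on its own axis from 0) of Car3, Car13, Car5b, Car8, Car12 and, outside the 7 genes, Car9, by library and group, with the mean and SD as bars. Car9 reaches 11.0 CPM in HS3A8-low replicate 1, and Car13 11.8 CPM in HS3A8-low replicate 3.

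The 7 genes together, of which Car1 and Car2 make up nearly all, took 1.09%, 1.16% and 1.12% of all counts in HS3A8-high replicates 1 to 3, and 0.898%, 0.991% and 0.918% in HS3A8-low. Wilson 95% intervals of these shares, which cover counting error only, reached at most 0.00573 percentage points to either side. The groups did not overlap. The means were 1.13% ± 0.0329 and 0.936% ± 0.0489 (SD, n = 3 each), and the exact two-sided permutation test gave p = 0.1, the smallest that 3 against 3 allows. HS3A8-high was higher in 3 of 3 replicate numbers, by 0.168 to 0.206 percentage points.

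The ratio of Car1 to Car2 counts does not depend on how libraries are scaled, and it asks whether both genes moved alike. It was 0.952, 0.958 and 0.928 in HS3A8-high replicates 1 to 3, and 0.940, 0.911 and 0.826 in HS3A8-low. The groups overlapped, and HS3A8-low replicate 3 was the lowest of all 9 libraries. The mean log2 ratio was -0.080 ± 0.024 in HS3A8-high, against -0.17 ± 0.097 in HS3A8-low (SD, n = 3 each), a difference of 0.086 with p = 0.2 in the exact two-sided permutation test. HS3A8-high was higher in 3 of 3 replicate numbers, by 0.019 to 0.17 on the log2 scale. The difference was 0.031 without HS3A8-low replicate 3 and 0.045 without replicate 3 of both fractions. With 3 libraries against 3, this test cannot give a p under 0.1.

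**Figure D4:**
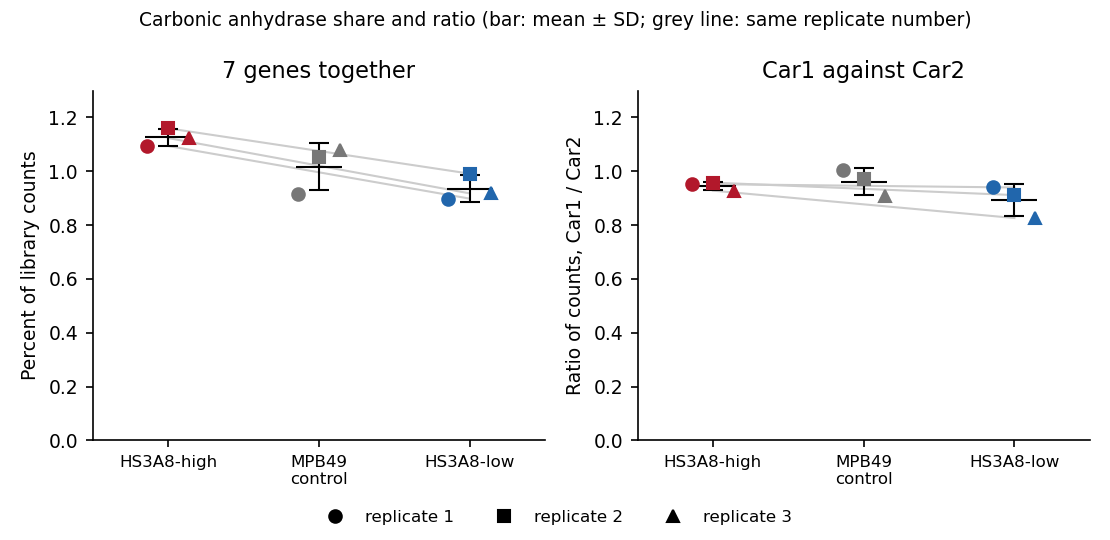
Counts of the 7 genes as a percent of the library (left) and the ratio of Car1 to Car2 counts (right), by library and group, with the mean and SD as bars and grey lines joining the 2 sorted libraries that share a replicate number. All 3 grey lines fall from HS3A8-high to HS3A8-low in both panels.

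Markers of other cells leaned lower in HS3A8-high MEPs, with calls in some lists. Called were 4 of 10 megakaryocyte markers tested, 3 of 8 of T and NK cells and 2 of 5 of stem and multipotent progenitors. Some markers passed the filter only with HS3A8-low in the fit, so the lean of these lists is partly set by the filter. In HS3A8-high against the control, 4 markers of T and NK cells and 4 of stem and multipotent progenitors were tested. Of granulocyte-monocyte markers 0 of 9 were called, of basophil and mast cell markers 0 of 3, and of B cell markers 0 of 2. Over all genes tested 3.82% were called. The summed level of 12 megakaryocyte markers was 81.6 to 120 CPM in HS3A8-high and 237 to 449 CPM in HS3A8-low, and all 12 had counts. Markers of T and NK cells (8 of 8 with counts) summed to 4.21 to 32.1 CPM against 182 to 224 CPM. In HS3A8-low, Nkg7 stood at 97.2 to 115 CPM, Tcf7 at 30.7 to 81.2 CPM and Trbc1 at 21.8 to 24.5 CPM. Cd3d, Cd3e and Cd3g, genes of a lineage antigen that the gate excludes, were at most 4.20 CPM in any library. Markers of stem and multipotent progenitors (6 of 6) summed to 8.50 to 22.7 CPM against 123 to 155 CPM. Markers of granulocytes and monocytes (12 of 12) summed to 10.005 to 1904 CPM against 118 to 4888 CPM, those of basophils and mast cells (6 of 6) to 1.26 to 68.0 CPM against 21.6 to 142 CPM, and those of B cells (5 of 6, Pax5 at 0) to 1.35 to 4.76 CPM against 9.59 to 13.6 CPM. The 9 erythroid markers overlapped, at 841 to 1029 CPM in HS3A8-high and 785 to 975 CPM in HS3A8-low, as did the 5 MEP markers, at 2332 to 2590 and 1982 to 2375 CPM. Of the erythroid markers 3 leaned higher and 6 lower in HS3A8-high (median log2 fold change -0.098), and Tfrc alone held 388 to 529 CPM. Of the MEP markers 4 leaned higher and 1, Gata2, lower, at 132 to 144 CPM in HS3A8-high and 198 to 404 CPM in HS3A8-low. None of either list was called. The part of any of these in the difference of Car1, Car2 and Car5b was not tested. With replicate 3 of both fractions left out, the log2 fold change was 0.36 for Car1 and 0.32 for Car2, and neither was called (edgeR adjusted p of 0.0899 and 0.143). That fit called 748 of 11898 genes.

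Markers of other tissues that use carbonic anhydrases are given as a description. Car2 is also a gene of osteoclasts, and Ctsk, Calcr and Ocstamp were at 0 in all 9 libraries, whereas Acp5, the tartrate-resistant acid phosphatase that osteoclasts and other myeloid cells make, stood at 8.35 to 20.2 CPM in every library. Osteoclast and macrophage markers summed to 8.35 to 21.03 CPM in HS3A8-high and 12.1 to 40.7 CPM in HS3A8-low, and their part in the level of Car2 was not tested. Car3 is also a gene of adipocytes, and Plin1, Cidec and Lep were at 0 in all libraries, whereas Adipoq and Fabp4 had counts. Adipocyte markers summed to at most 1.03 CPM, and their part in the level of Car3 was not tested.

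The comparisons with the MPB49 control place each fraction against total MEPs. They share the control libraries. No carbonic anhydrase gene was called in either.

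Car1 stood at 5302, 5073 and 5109 CPM in control replicates 1 to 3, and Car2 at 5282, 5221 and 5637 CPM. In CPM scaled by TMM, the control lay above every HS3A8-low library and within or just below the HS3A8-high libraries. Against the control, HS3A8-high had a log2 fold change of 0.11 ± 0.12 (SE) for Car1 and 0.12 ± 0.12 (SE) for Car2, with edgeR adjusted p of 0.748 and 0.735. HS3A8-low had -0.29 ± 0.13 (SE) for Car1, with an unadjusted p of 0.0559 and an edgeR adjusted p of 0.840, and -0.19 ± 0.14 (SE) for Car2, also with an adjusted p of 0.840.

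Car3 stood at 6.02, 3.63 and 4.11 CPM in control replicates 1 to 3, and Car13 at 8.93, 6.63 and 7.04 CPM. Control replicate 1, the library that stood apart, was the highest of its group for Car1, Car3 and Car13 in CPM scaled by TMM. The log2 fold changes of Car3 were 0.12 ± 0.33 (SE) in HS3A8-high and -0.43 ± 0.35 (SE) in HS3A8-low, and those of Car13 0.20 ± 0.24 and 0.045 ± 0.37, with edgeR adjusted p of 0.757 or more. Car5b had 4, 17 and 8 counts in the control, Car8 0, 8 and 3, and Car12 0, 13 and 6. Of these, Car5b (0.84 ± 0.66, SE) and Car12 (0.76 ± 1.10, SE) were tested in HS3A8-low against the control, with adjusted p of 0.840 and 0.901.

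In HS3A8-high against the control, 0 of 4 genes tested were called and 0.0174% of all 11486 genes. None of the 4 had an unadjusted p under 0.05 or a call by DESeq2 or voom, beside 562, 141 and 100 of all genes, and 0 had groups that did not overlap, against 14.2% of all genes. In HS3A8-low against the control, 0 of 6 were called and 0% of all 11878 genes, although 673 of all genes had an unadjusted p under 0.05, and DESeq2 called 93 and voom 287 of them. None of the 6 was called by DESeq2 or voom or had an unadjusted p under 0.05. Car1 and Car2 were the 2 of 6 whose groups did not overlap in CPM scaled by TMM, against 12.8% of all genes. As a percent of library counts both overlapped. Control replicate 1 had 0.458% for Car1 and 0.457% for Car2, against 0.414% to 0.472% and 0.463% to 0.518% in HS3A8-low. With library totals in place of TMM, the log2 fold changes were -0.17 for Car1 and -0.069 for Car2.

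**Figure D5:**
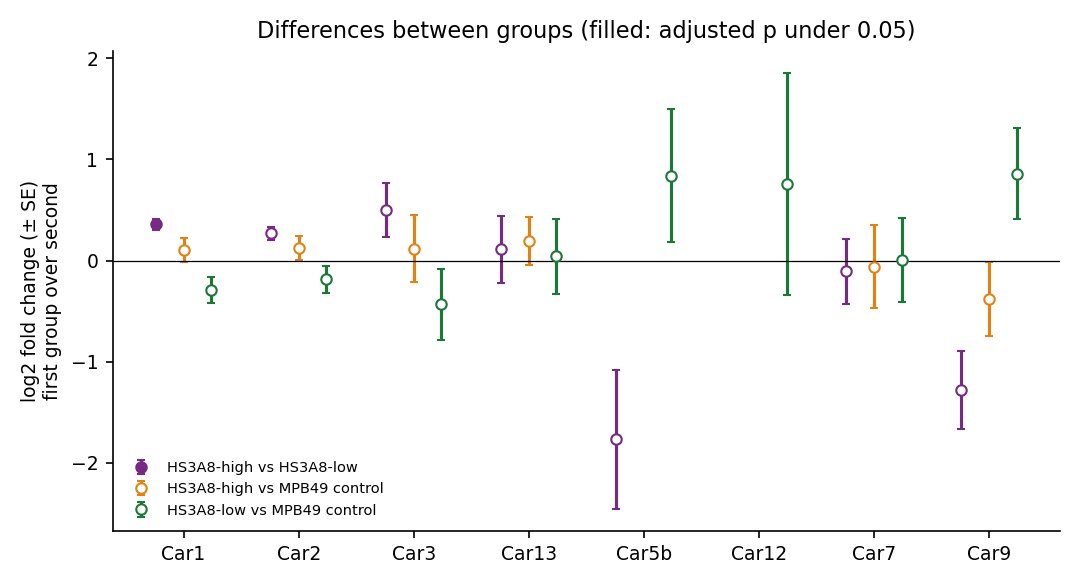
Fitted log2 fold changes with their standard errors in the 3 comparisons for the carbonic anhydrase genes that passed the filter in at least 1, first group over second, with filled symbols for an adjusted p under 0.05. Car1 in HS3A8-high against HS3A8-low is the single filled symbol, and Car5b (-1.77) and Car9 (-1.28) lie below 0 with wide errors.

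The share of the 7 genes in the control was 0.916%, 1.05% and 1.08% in replicates 1 to 3, with replicate 1 lowest. The mean of 1.02% ± 0.0875 (SD, n = 3) was 0.109 percentage points below HS3A8-high (exact permutation p = 0.1) and 0.0804 above HS3A8-low (exact permutation p = 0.3). Without control replicate 1, the differences from the control were 0.0595 percentage points for HS3A8-high and -0.130 for HS3A8-low. The latter was -0.0490 without control replicate 3. The ratio of Car1 to Car2 counts in the control was 1.004, 0.972 and 0.906. Its mean log2 value of -0.059 ± 0.075 (SD, n = 3) overlapped both fractions, with differences of -0.021 for HS3A8-high (exact permutation p = 0.8) and -0.11 for HS3A8-low (exact permutation p = 0.3), all two-sided. The latter was -0.052 without HS3A8-low replicate 3.

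Of the 9 other carbonic anhydrase genes, Car7 and Car9 averaged at least 1 CPM and were the 2 tested. Car9, a membrane form best known as a hypoxia-induced gene, had 51, 46 and 45 counts in HS3A8-high replicates 1 to 3, 188, 111 and 49 in HS3A8-low, and 58, 70 and 38 in the control. The counts overlapped, since HS3A8-low replicate 3 lay below HS3A8-high replicate 1. In CPM scaled by TMM they did not, with HS3A8-low replicate 3 at 4.12 CPM and HS3A8-high at most at 3.46 CPM. The means were 3.21 ± 0.242 CPM in HS3A8-high and 7.64 ± 3.44 CPM in HS3A8-low (SD, n = 3 each), with a log2 fold change of -1.28 ± 0.39 (SE) and an edgeR adjusted p of 0.130. Over 16 alternatives the adjusted p of Car9 ran from 0.0307 to 0.305, and 2 of them called it. An opposite-strand gene, Gm12454, overlaps 9.29% of the exon bases of Car9, and the strand setting of the counting is not given in the sources used here. Car7, a cytosolic form best known from the brain, had 27 to 47 counts in the 6 sorted libraries and a log2 fold change of -0.11 ± 0.32 (SE, edgeR adjusted p = 0.891). Of the remaining 7 genes, Car11 had 0 to 6 counts a library, Car15 0 to 2, and Car4 1 count in all.

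The genes on either side of the cluster did not share the level of Car1 and Car2. Between Car13 and Car2 the table holds the pseudogenes Gm5843 and Gm16399, both at most 0.282 CPM. Within 300 kb of the cluster, the genes with more than 1 count were Lrrcc1 (69.1 kb away, 25.4 to 33.7 CPM), which encodes a centrosome protein, E2f5 (35.4 kb away, 7.84 to 19.0 CPM), which encodes a transcription factor of the cell cycle, and 1810022K09Rik (30.4 kb away). The last stood at 61.5 to 193 CPM in 8 libraries and at 506 CPM in control replicate 1. These genes all lie on the side of Car13, and their distances are counted from Car13. On the side of Car2, A930001A20Rik had 1 count, in control replicate 3. In HS3A8-high against HS3A8-low the log2 fold changes of Lrrcc1, E2f5 and 1810022K09Rik were -0.22 ± 0.14, -0.49 ± 0.33 and -0.42 ± 0.38 (SE). They were opposite in sign to those of Car1, Car2 and Car3, with edgeR adjusted p of 0.465, 0.472 and 0.597. For E2f5 and 1810022K09Rik, HS3A8-low replicate 3 was the highest sorted library. In replicate 1 HS3A8-high was the higher (8.22 against 7.84 and 75.1 against 61.5 CPM), and in replicates 2 and 3 HS3A8-low.

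Carbon dioxide, bicarbonate and proton handling also needs transporters, and 17 such genes were examined. In HS3A8-high against HS3A8-low, 11 were tested and 0 were called, 5 leaned higher and 6 lower in HS3A8-high, and their median log2 fold change was -0.091, beside -0.029 over all genes. At an unadjusted p under 0.05 there were 2, Slc16a1 and Slc26a6, beside 2339 of all 11791 genes. DESeq2 and voom each called 1, Slc16a1, beside 1229 and 1490 of all genes. With the replicate block 2 were called, Slc16a1 and Hvcn1, where 11.6% of all genes passed. Hvcn1, a proton channel of white blood cells, had a log2 fold change of -1.73 and an edgeR adjusted p of 0.512 without the block, against -2.29 and 0.0366 with it. Its highest levels were 17.6 CPM in HS3A8-low replicate 3 and 6.48 CPM in HS3A8-high replicate 3, the libraries with the most granulocyte-monocyte transcripts, against 0.251 to 3.57 CPM in the other 7. Without the block, its log2 fold change ran from -4.47 to -0.33 when 1 library was left out. Against the control, 0 of 9 were called by edgeR in HS3A8-high (median 0.15, all genes -0.0030) and 0 of 11 in HS3A8-low (median 0.13, all genes -0.0028), with 1 at an unadjusted p under 0.05 in each (Slc4a7 and Hvcn1) and 0 by DESeq2 or voom. Slc4a1, the chloride-bicarbonate exchanger of red cells that works beside Car2, stood at 1.69 to 8.99 CPM, far below the levels of Aqp1, a water channel (885 to 1528 CPM), Slc16a1, a lactate and proton carrier (390 to 566 CPM), Rhd, a Rhesus protein (335 to 584 CPM), and Rhag, its ammonia-conducting partner (223 to 346 CPM).

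The 4 abundant transporters leaned higher in HS3A8-high MEPs, as Car1 and Car2 did, and none passed the test. Slc16a1 had 566, 491 and 495 CPM in HS3A8-high replicates 1 to 3 and 419, 406 and 390 CPM in HS3A8-low. Its groups did not overlap, and the log2 fold change was 0.33 ± 0.086 (SE) with an edgeR adjusted p of 0.0923, and of 0.0278 with the replicate block. The log2 fold changes were 0.26 ± 0.16 for Aqp1, 0.25 ± 0.13 for Rhag and 0.13 ± 0.14 for Rhd (SE), with edgeR adjusted p of 0.428, 0.364 and 0.675.

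The genes most like Car1 and Car2 over the 9 libraries were searched for among 9348 genes averaging 5 CPM or more, by Pearson's r of log2 CPM. These values describe 9 libraries that share groups and scaling. Closest to Car1 were Prdx6, which encodes a peroxiredoxin (r = 0.982), Odc1, which encodes the first enzyme of polyamine synthesis (r = 0.980), Cct3, a subunit of the cytosolic chaperonin (r = 0.980), Atad3a, a mitochondrial ATPase (r = 0.972), and Exosc7, a subunit of the RNA exosome (r = 0.971). Closest to Car2 were Cct2, a further chaperonin subunit (r = 0.977), Txn2, a mitochondrial thioredoxin (r = 0.973), Ifrd2 (r = 0.970), Tomm40, the import pore of the outer mitochondrial membrane (r = 0.967), and Cct7, also of the chaperonin (r = 0.964). Car1 and Car2 were not each other's closest genes, since Car2 was in place 68 for Car1 and Car1 in place 63 for Car2 (r = 0.904). By Spearman's rho 1 of the 5 genes was kept for each, Odc1 for Car1 and Txn2 for Car2.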

How the data were processed

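RNA-seq of 9 MEP libraries was analysed. The authors mapped low-input reads to the mm10 transcriptome with STAR (2.5 in the submitters' processing notes, which also name HTSeq 0.6.1) and deposited raw counts per gene, 1 column per library, without normalization or pooling. The annotation release and strand setting are not given in the sources used here. Of 35275 identifiers, 34490 were matched to symbols, coordinates and exon lengths of GENCODE M21 (GRCm38). Sequences were read from its transcripts.

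The members and lists were chosen with earlier results of these data known. The named genes are the 7 members, other carbonic anhydrases with a mean of at least 1 CPM, transporters called or with a mean of at least 50 CPM, neighbours within 300 kb, and the 5 genes most like Car1 and Car2. Osteoclast, adipocyte and blood cell markers were lists of the same kind.

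Counts were tested in R 4.3.3 with edgeR 4.0.16 (TMM, filterByExpr, quasi-likelihood test, Benjamini-Hochberg over all genes, adjusted p under 0.05), with 2 groups per fit. Ratios and shares were tested by exact permutation. Alternatives were other scaling factors, scaling without carbonic anhydrase genes, DESeq2 1.42.0 (the study's tool), voom of limma 3.58.1 with quality weights, other filters, all 9 libraries in 1 fit, a replicate block and each library left out. Leaving out replicate 3 of both fractions was chosen after seeing the data. Scripts were tested on simulated data.

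The study gives 3 individual mice and does not say whether fractions came from the same mouse. Across 11336 genes, same-numbered libraries of both fractions deviated together from their group means (r of 0.409 to 0.600; different numbers, -0.564 to 0.207), and the numbers were taken to pair these libraries. They did not pair libraries with the control (-0.365 to 0.0178).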

Additional observations from a re-analysis of the deposited data

How the results depend on the processing

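In HS3A8-high against HS3A8-low, 1 of the 7 genes was called. The number was 0 with upper-quartile factors, with all 9 libraries in 1 fit, without replicate 3 of both fractions, and in each of the 6 fits without 1 library (0 to 0), and 2 (Car1 and Car2) with voom and in the fit with the replicate block, which called 1490 and 1367 of all 11791 genes. The fit without replicate 3 of both fractions called 748 of 11898 genes, against 451 of 11791 in the main fit. Fits that leave out libraries also hold fewer samples, and the cause of these changes was not tested. The other 6 alternatives gave 1. Against the control, 0 were called under all 16 alternatives of either comparison, the replicate block included. The adjusted p of Car1 was 0.0512 with upper-quartile factors and 0.0558 in 1 fit of all libraries. The log2 fold changes of Car1 and Car2 kept their direction under all alternatives of the 3 comparisons.

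Directions that turned were those of genes far from the threshold. Over the fits that leave out 1 library, Car13 in HS3A8-high against HS3A8-low ran from -0.061 (without replicate 2 of HS3A8-low) to 0.53, with -0.013 without replicate 1 of that group. Car13 in HS3A8-low against the control ran from -0.36 (without replicate 3 of HS3A8-low) to 0.24, and was -0.20 with voom, -0.029 with the replicate block and -0.040 without control replicate 2. Car3 in HS3A8-high against the control ran from -0.013 (without control replicate 2) to 0.35, with -0.0099 without HS3A8-high replicate 3. Car12 in HS3A8-low against the control ran from -0.016 (without HS3A8-low replicate 3) to 1.66. The log2 ratio of Car1 to Car2 in HS3A8-high against the control ran from -0.062 to 0.012, the latter without control replicate 1.

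Library totals in place of TMM moved the median of all genes by 0.12 (log2) in HS3A8-low against the control. Depth limits Car5b, Car8 and Car12, with at most 29 counts in any library.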
